A study of Mus musculus with 12 samples.

Results

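The G2/M and mitosis genes are 36 genes whose products carry a cell from the end of DNA replication through mitosis to the separation of the daughter cells. They were picked by name from a list of 36 gene symbols, and all 36 were found among the 18211 mouse genes of the expression table. The list covered 8 genes of mitotic entry, 7 mitotic kinases and chromosomal passenger proteins, 6 genes of the spindle checkpoint and the anaphase-promoting complex (APC/C), 3 centromere proteins, 5 spindle proteins, 5 proteins of the central spindle and cytokinesis, and 2 chromosome proteins.

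The samples were 12 subcutaneous tumors of MC38, a line of mouse colorectal adenocarcinoma cells, in female C57BL/6 mice bought at 5 weeks of age, with 3 tumors in each of 4 groups. Grouping took place on day 7 after the injection. CK mice received vehicle, PB-020 mice received the compound PB-020, an inhibitor of the growth factor receptor IGF-1R, by mouth at 50 mg/kg per day, anti-PD-1 mice received an antibody against the T cell checkpoint receptor PD-1 at 200 μg per mouse on days 9, 12, 15 and 18, and the combination group received both. Tumor and host cells carried the same genome, so that a transcript from a dividing tumor cell and one from a dividing immune cell counted toward the same gene.

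Entry into mitosis is driven by the kinase Cdk1 bound to cyclin A or cyclin B. Polo-like and Aurora kinases then build the spindle, the spindle checkpoint holds the cell until every chromosome is attached, and the APC/C with its partner Cdc20 marks cyclin B and securin for destruction so that the chromatids part. Many of the genes involved are transcribed mainly in late S phase, G2 and mitosis, under the control of the factors B-Myb and FoxM1 and of the MuvB complex, and in a tumor their combined level is widely read as a sign of how many cells are cycling.

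Depth was even, with between 16545394 and 17217035 expected counts per tumor. Each of the 36 genes passed the filter on low counts, with 384 to 21644 counts per tumor, and they stand among 13563 genes tested. The tumors differed in their other cells. Summed TPM (a measure of transcript abundance that corrects for gene length) of 11 measured T cell markers, none at 0 in any tumor, was 70.4 to 93.6 in CK tumors, 88.0 to 99.8 with PB-020, 119 to 247 with anti-PD-1 and 128 to 179 with both agents. Anti-PD-1 tumor 1 had the most T cell marker RNA and, at 1030 TPM against 20.8 to 113 elsewhere, by far the most skeletal muscle marker RNA, and CK tumor 3 had 697 TPM of neutrophil markers against 9.67 to 51.4 elsewhere. Fibroblast markers lay between 3119 and 4303 TPM in CK and between 1359 and 2023 TPM in the combination group, where 3 of the 6 (Col3a1, Dcn and Pdgfra) fell against CK and the other 3 (Lum, Col1a1 and Col1a2) had fitted log2 changes above 0 that did not pass. Epithelial markers were low, with 1 of the 7 passing the count filter and 3.98 to 7.62 TPM in all, so the epithelial label of the MC38 cells could not be checked on these genes. In whole tumors a larger share of cycling cells and more RNA per cycling cell cannot be told apart. In the study's last volume measurements, all combination tumors were smaller than all CK tumors, and tumors given anti-PD-1 alone mostly were. Those measurements covered more mice than were sequenced, and the sources used here do not mark the sequenced tumors among them. Volume was not in the model, so treatment and tumor size cannot be told apart either.

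The 36 genes were expressed well above most others. The median of their mean TPM over the 12 tumors was 83.9, against 9.63 over all 18211 genes and 19.4 over the genes tested. Ube2c, the ubiquitin-conjugating enzyme that works with the APC/C, was the highest at 451 TPM, followed by the DNA topoisomerase Top2a at 356 TPM and cyclin A2 (Ccna2) at 254 TPM. Anln, which encodes the actin-binding protein anillin of the cleavage furrow, and Mki67, which encodes the proliferation marker Ki-67, came next at 188 and 183 TPM. The cyclins B1 and B2 lay close together at 121 and 119 TPM, and their kinase Cdk1 at 81.9 TPM. The lowest were the checkpoint kinase Ttk at 33.3 TPM and Cdc25c, the phosphatase that activates Cdk1, at 27.6 TPM.

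Promoters of G2/M genes are known for 2 short elements, the cell-cycle homology region (CHR), bound by MuvB complexes, and the CCAAT box, bound by NF-Y. The stretches below, from RefSeq on build GRCm38.p6, run from 150 bases before to 30 bases after the transcription start and are written 5′ to 3′ along the gene. They are shown for the mitotic drivers Cdk1, Ccnb1 and Ccnb2, for 4 of the genes with the strongest changes described further on (Top2a, Hmmr, Ube2c and Bub1), and for Nek2, which had the smallest fitted change in the combination group. Capitals mark every match to the CHR (TTTGAA or TTTAAA) or to CCAAT on either strand, so that TTCAAA and ATTGG are the same elements read from the other strand.
Cdk1 (chr10:69352883-69353062, minus strand): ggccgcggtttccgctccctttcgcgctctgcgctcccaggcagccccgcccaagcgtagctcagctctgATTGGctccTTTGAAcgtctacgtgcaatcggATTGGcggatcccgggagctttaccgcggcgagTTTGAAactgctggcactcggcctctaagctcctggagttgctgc
Ccnb1 (chr13:100786457-100786636, minus strand): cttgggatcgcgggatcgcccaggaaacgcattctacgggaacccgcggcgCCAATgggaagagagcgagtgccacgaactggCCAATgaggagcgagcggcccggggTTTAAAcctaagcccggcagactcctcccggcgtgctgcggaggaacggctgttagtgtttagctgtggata
Ccnb2 (chr9:70421525-70421704, minus strand): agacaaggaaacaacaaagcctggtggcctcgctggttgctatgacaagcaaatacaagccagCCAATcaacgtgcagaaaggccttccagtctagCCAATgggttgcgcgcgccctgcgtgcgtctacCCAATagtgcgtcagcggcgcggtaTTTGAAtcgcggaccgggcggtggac
Top2a (chr11:99024160-99024339, minus strand): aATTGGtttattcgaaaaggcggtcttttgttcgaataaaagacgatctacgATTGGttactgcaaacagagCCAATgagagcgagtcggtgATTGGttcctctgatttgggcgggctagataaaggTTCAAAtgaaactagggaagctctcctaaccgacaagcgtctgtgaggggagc
Hmmr (chr11:40733408-40733587, minus strand): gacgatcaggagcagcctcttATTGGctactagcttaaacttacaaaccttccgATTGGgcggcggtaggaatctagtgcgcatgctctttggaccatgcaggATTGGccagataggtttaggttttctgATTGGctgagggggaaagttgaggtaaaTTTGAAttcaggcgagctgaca
Ube2c (chr2:164769779-164769958, plus strand): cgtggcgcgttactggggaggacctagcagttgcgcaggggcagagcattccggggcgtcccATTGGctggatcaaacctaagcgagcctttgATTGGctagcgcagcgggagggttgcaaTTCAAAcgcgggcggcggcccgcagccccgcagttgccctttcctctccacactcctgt
Bub1 (chr2:127831830-127832009, minus strand): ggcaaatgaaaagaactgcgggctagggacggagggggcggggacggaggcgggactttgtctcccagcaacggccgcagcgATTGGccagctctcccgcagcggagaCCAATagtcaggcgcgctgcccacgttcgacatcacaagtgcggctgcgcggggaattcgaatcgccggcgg
Nek2 (chr1:191821323-191821502, plus strand): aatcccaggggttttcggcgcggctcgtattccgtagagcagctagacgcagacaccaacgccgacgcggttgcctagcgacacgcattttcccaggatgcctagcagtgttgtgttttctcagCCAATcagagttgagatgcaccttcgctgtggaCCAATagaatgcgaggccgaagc

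RefSeq windows from 250 bases before to 50 after the start matched 29 of the 36 genes, with 30 windows because Prc1 had 2. Aurkb, Ccna2, Cdc25c, Foxm1, Kif20a, Pbk and Tpx2 had no entry in the set of windows used. The Kif2c window (chr4:117178723-117179022, minus strand) lay inside the gene as annotated (chr4:117159633-117182624), so it is not at the gene's outermost start. A CHR lay anywhere in 26 of the 30 windows (86.7%), against 27.6% of all 32851 windows, and one that began between 50 bases before and 20 after the start lay in 20 (66.7%), against 6.76%. At least 1 CCAAT box was present in 25 windows (83.3%), against 37.4%, and at least 2 in 18 (60%), against 11.7%. In the stretches shown no CHR overlapped a CCAAT box. Counted over the whole windows, in Hmmr the CHR began at position 9 after the start, with 5 CCAAT boxes upstream of it. In Ube2c a CHR at position -29 stood downstream of 6 CCAAT boxes (a pair of them overlapping on opposite strands), and in Ccnb1 one at -42 stood downstream of 2. Cyclin B2 carried the same kinds of element, a CHR at each of positions -167 and 5 and 3 CCAAT boxes. Bub1 and Nek2 each had 2 CCAAT boxes and no CHR in the window. These are matches of letters, and binding was not measured.

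**Figure D1:**
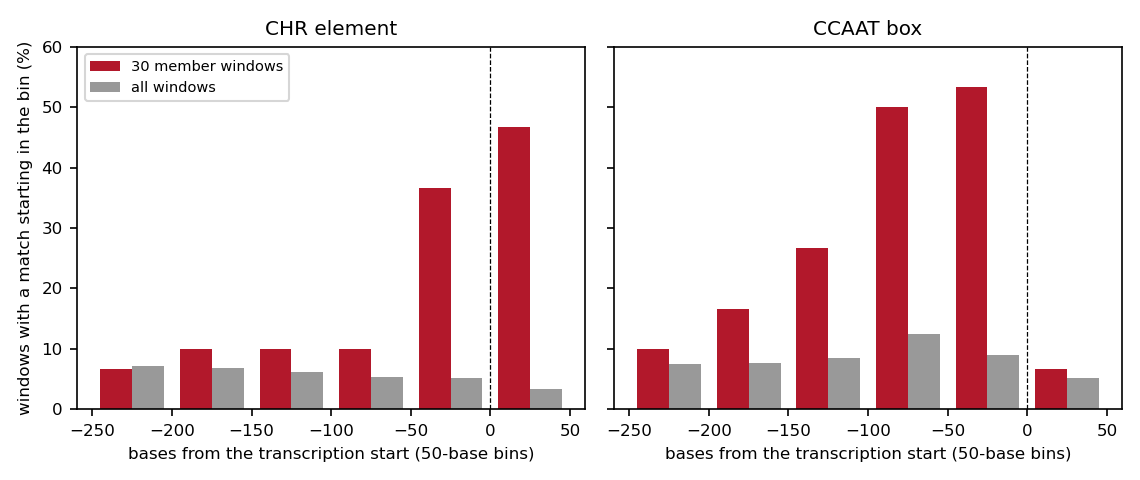
Share of RefSeq promoter windows (percent) with a CHR or a CCAAT box beginning in each 50-base bin, by distance from the transcription start in bases, for the 30 windows of the G2/M and mitosis genes and for all windows. CHR matches of these genes stood out in the last bin before the start and the first after it, with 36.7% and 46.7% of windows, and CCAAT boxes in the bins from 100 bases before the start to the start, with 50% and 53.3%.

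The combination was set against CK to ask what both agents together did to the tumor's transcripts. In the combination group 15 of the 36 genes rose, 0 fell and 21 did not pass the test (edgeR's quasi-likelihood test, two-sided, Benjamini-Hochberg adjusted p under 0.05 over all 13563 genes). Of all genes tested, 8.35% rose in this comparison and 9.6% fell. The fitted change was above 0 for all 36 genes, against 49.6% of all genes, with a median of 0.28 on the log2 scale and a range of 0.04 to 0.65, against a median of -0.0026 over all genes. The sizes were modest, and 3 genes (Top2a, Hmmr and Bub1) passed both a 1.5-fold change and an unadjusted p under 0.05, as 8.52% of all genes did. In 22 genes every combination tumor lay above every CK tumor in CPM (counts scaled to library size by TMM), a pattern that 19.6% of all genes showed, and in 0 genes every combination tumor lay below (21.2% of all genes). In TPM 17 genes showed the first pattern (13.2% of all genes) and 0 the second (27.5%).

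**Figure D2:**
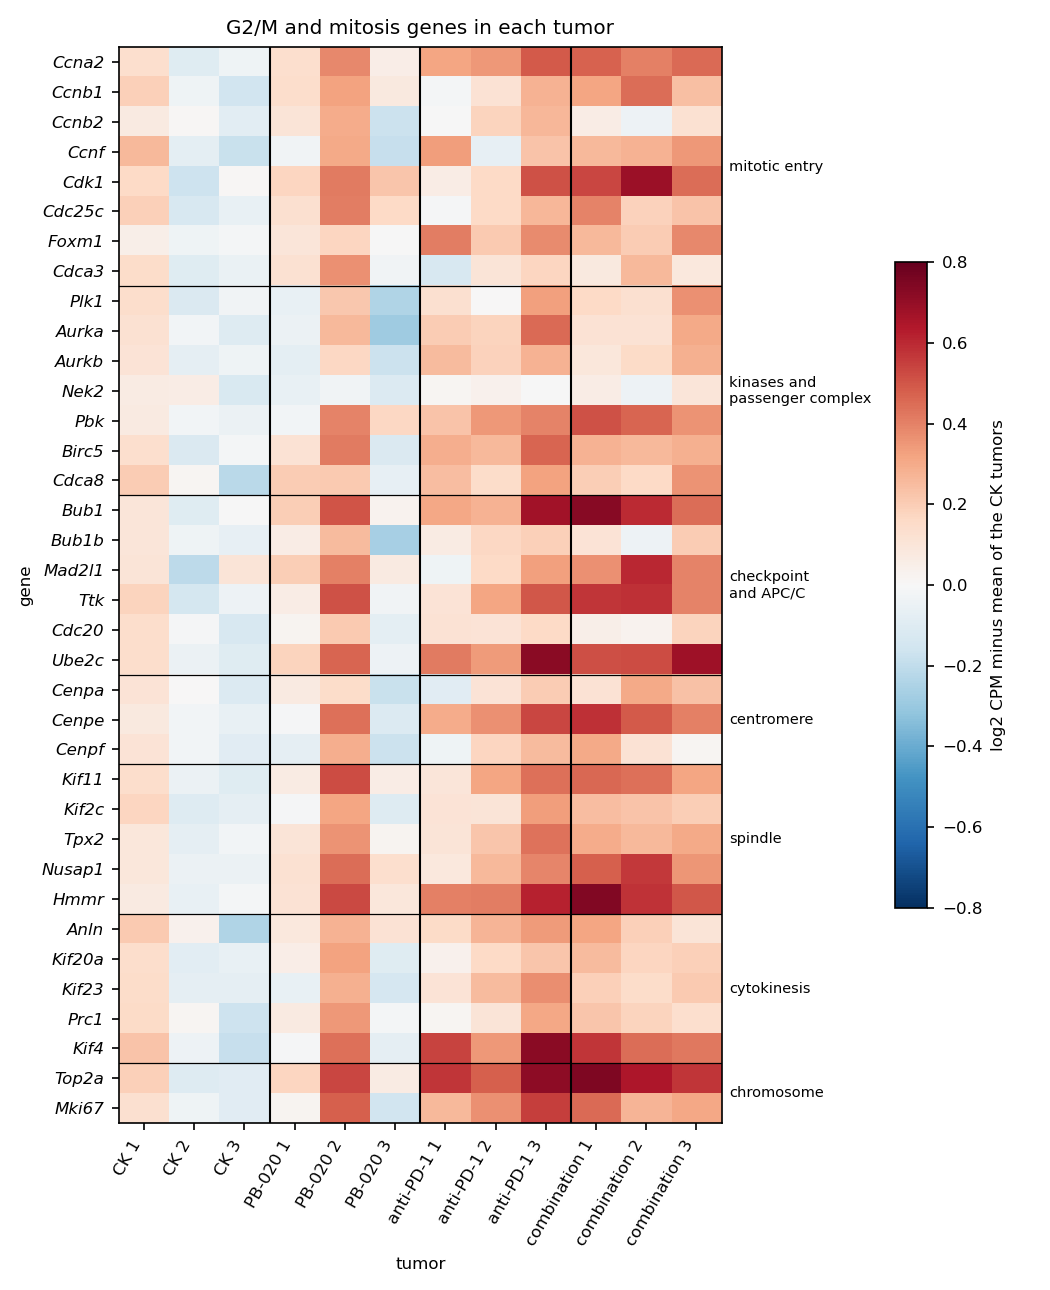
Log2 CPM of each of the 36 genes (rows, ordered by role) in each of the 12 tumors (columns, by group) minus the mean of the 3 CK tumors; red is higher and blue lower. The CK tumors were above the CK mean for 36, 6 and 2 of the genes and the PB-020 tumors for 25, 35 and 13. The anti-PD-1 tumors were above it for 29, 35 and 35, and the combination tumors for 36, 33 and 36.

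The count depended on single tumors of both groups. It was 5 without CK tumor 2, 9 without CK tumor 3, and 8 or 9 without combination tumor 1 or 2, while leaving out 1 tumor at a time kept between 35 and 36 of the fitted changes above 0. Ccna2, Hmmr, Nusap1, Pbk and Top2a were called in all 20 alternatives of the test, which are the 12 left-out tumors and 8 other models or filters at an adjusted p under 0.05. The fold threshold of 1.5 is not among the 20, and Ccna2, Nusap1 and Pbk did not pass it.

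Among the 8 genes of mitotic entry, Cdk1, Ccnb1, Ccna2 and Foxm1 rose with the combination. Cdk1 (chr10:69335146-69352912, GRCm38.p6) stood at 115, 92.3 and 104 CPM in the CK tumors, 116, 138 and 120.4 with PB-020, 108, 115 and 148 with anti-PD-1 and 149.7, 166 and 141 with both agents. All 3 combination tumors lay above the other tumors except anti-PD-1 tumor 3, which lay among them. The log2 change against CK was 0.55 ± 0.12 (SE, adjusted p = 0.010, edgeR), a 1.47-fold rise over CK, and the call was lost (adjusted p = 0.052) without CK tumor 2.

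Cyclin A2 partners Cdk1 and Cdk2 from S phase to early mitosis. Its gene Ccna2 (chr3:36564865-36573038) measured 349, 298 and 311 CPM in the CK tumors, 350.0, 416 and 330.1 with PB-020, 397, 406 and 447 with anti-PD-1 and 442, 422 and 436 with both agents. The 6 tumors given anti-PD-1, alone or with PB-020, ran from 397 to 447 CPM, and of the other 6 only PB-020 tumor 2 came into that range. Ccna2 rose by 0.44 ± 0.09 on the log2 scale in the combination group (SE, adjusted p = 0.0075, edgeR).

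Of the B cyclins, Ccnb1 passed the test and Ccnb2 did not, and the difference between them was not tested. Cyclin B1 (Ccnb1, chr13:100778739-100786486), the main activator of Cdk1 in mitosis, was at 151, 129 and 119 CPM in the CK tumors, 146, 165 and 139.9 with PB-020, 131, 144 and 161 with anti-PD-1 and 165, 180.3 and 157 with both agents. Its lowest combination tumor stood just above its highest CK tumor, and the change of 0.33 ± 0.10 (log2, SE, adjusted p = 0.036, edgeR) was lost without any 1 of 5 tumors (CK 2 or 3, PB-020 1, or combination 1 or 2; adjusted p 0.054 to 0.14). Cyclin B2 (Ccnb2, chr9:70407689-70421554), whose mean TPM was close to that of cyclin B1, read 93.9, 89.5 and 84.2 CPM in the CK tumors, 95.9, 109 and 79.2 with PB-020, 88.7, 101 and 107 with anti-PD-1 and 92.9, 86.6 and 97.0 with both agents. These groups overlapped, and the change of 0.05 (95% interval -0.18 to 0.27, adjusted p = 0.78, edgeR) left room for a small rise or a small drop.

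Foxm1, which encodes the transcription factor FoxM1, and the remaining genes of mitotic entry showed smaller differences. Foxm1 was at 183 ± 5.57 CPM (SD, n = 3) in CK and 223 ± 14.6 in the combination tumors, a rise of 0.29 ± 0.07 on the log2 scale (SE, adjusted p = 0.019, edgeR) with no overlap of the 2 groups. That call was lost without CK tumor 2 or 3 or combination tumor 1 or 3 (adjusted p 0.051 to 0.080). Cdc25c, the least abundant of the 36, was at 28.0, 22.4 and 23.5 CPM in CK and 32.3, 27.8 and 28.7 in the combination tumors, with a log2 change of 0.27 ± 0.11 (SE, adjusted p = 0.11, edgeR) that did not pass. Ccnf, a cyclin that serves as the substrate receptor of a ubiquitin ligase, and Cdca3, which promotes mitotic entry, had log2 changes of 0.28 and 0.14 and did not pass either.

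Of the 7 mitotic kinases and passenger proteins, Pbk alone rose. Pbk (chr14:65805911-65817822), a kinase of the MAP kinase kinase family that is active in mitosis, measured 68.9, 64.4 and 63.4 CPM in the CK tumors, 64.6, 86.2 and 73.6 with PB-020, 76.9, 83.3 and 86.2 with anti-PD-1 and 93.5, 90.6 and 84.1 with both agents. Every tumor given anti-PD-1 lay above every CK tumor, and the combination change was 0.45 ± 0.09 (log2, SE, adjusted p = 0.0075, edgeR). The Polo-like kinase Plk1 and the Aurora kinases Aurka and Aurkb, which build the spindle and correct its attachments, had log2 changes of 0.22, 0.18 and 0.18. Birc5 (survivin) and Cdca8 (borealin), partners of Aurora B in the chromosomal passenger complex, had 0.27 and 0.23. None of these 5 passed the test, with adjusted p values of 0.11 to 0.33.

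Nek2, a centrosome kinase, had the smallest fitted change of the 36 in the combination group. It read 66.0, 65.8 and 58.1 CPM in the CK tumors, 60.7, 61.9 and 58.6 with PB-020, 63.8, 64.7 and 62.9 with anti-PD-1 and 66.0, 61.5 and 67.6 with both agents (chr1:191821449-191833049). Its 12 values spanned 58.1 to 67.6 CPM with all groups overlapping. Its combination change was 0.04 (95% interval -0.11 to 0.18, adjusted p = 0.72, edgeR), and without CK tumor 3 it was -0.014.

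The spindle checkpoint and APC/C group had 4 of its 6 genes raised, namely Bub1, Mad2l1, Ttk and Ube2c. Bub1 (chr2:127800197-127831859), the kinase that seats checkpoint proteins on the kinetochore, was at 88.0, 76.9 and 82.1 CPM in the CK tumors, 94.2, 116 and 83.8 with PB-020, 102, 99.7 and 131 with anti-PD-1 and 136, 124 and 112 with both agents. Both groups given anti-PD-1 lay wholly above CK. The combination change was 0.59 ± 0.13 (log2, SE, adjusted p = 0.011, edgeR), with adjusted p values of 0.056 and 0.051 without CK tumor 2 or combination tumor 1.

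Ube2c (chr2:164769929-164772902), whose product starts the ubiquitin chains that the APC/C extends, read 174, 153 and 147 CPM in the CK tumors, 178, 218 and 153 with PB-020, 210.5, 199 and 259.8 with anti-PD-1 and 225, 226 and 253 with both agents. The 3 combination tumors exceeded all CK and PB-020 tumors, and anti-PD-1 tumor 3 was the highest of the 12. Ube2c rose by 0.57 ± 0.13 (log2, SE, adjusted p = 0.012, edgeR), and the adjusted p without CK tumor 2 was 0.056.

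Mad2l1, which encodes the Mad2 protein that blocks Cdc20, rose by 0.45 ± 0.12 (log2, SE, adjusted p = 0.020, edgeR), from 96.8 ± 11.6 to 132 ± 12.1 CPM (SD, n = 3). Ttk, the kinase also called Mps1 that starts checkpoint signaling, rose by 0.52 ± 0.14 (adjusted p = 0.027), from 43.1 ± 5.0 to 61.7 ± 4.41 CPM. The Ttk call was lost without CK tumor 2 or 3 or combination tumor 1 or 2, and the Mad2l1 call without CK tumor 2 or combination tumor 2. The other 2 genes of the group did not pass. Bub1b, which encodes the checkpoint protein BubR1, was at 133, 121 and 119 CPM in CK and 134, 121 and 143 in the combination tumors, which overlapped, with a log2 change of 0.09 (95% interval -0.14 to 0.32, adjusted p = 0.59, edgeR). Cdc20, the APC/C activator, had a log2 change of 0.08 (95% interval -0.10 to 0.26).

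At the centromere, Cenpe rose and Cenpa and Cenpf did not pass. Cenpe (chr3:135212563-135273540), a kinesin that moves chromosomes to the spindle equator, was at 178, 166 and 161 CPM in the CK tumors, 167, 228 and 155 with PB-020, 207, 216 and 244 with anti-PD-1 and 252, 236 and 223 with both agents. All 6 tumors given anti-PD-1 lay above the CK tumors, and PB-020 tumor 2 lay among them while PB-020 tumors 1 and 3 lay within or just below the CK range. The change was 0.49 ± 0.12 (log2, SE, adjusted p = 0.016, edgeR), and the adjusted p was 0.052 to 0.070 without CK tumor 2 or 3 or combination tumor 1 or 2. Cenpa, the centromeric histone H3 variant, and the kinetochore protein Cenpf had log2 changes of 0.22 and 0.15.

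Of the 5 spindle genes, Hmmr, Nusap1 and Kif11 rose. Hmmr (chr11:40701388-40733464), which encodes a spindle protein also known as a hyaluronan receptor, had the smallest p of the 36. It measured 103, 93.8 and 96.4 CPM in the CK tumors, 106, 141 and 104 with PB-020, 129, 129.6 and 149 with anti-PD-1 and 163, 146 and 138 with both agents. Every treated tumor of all 3 groups lay above the highest CK tumor, although PB-020 tumors 1 and 3 did so narrowly. The combination change was 0.61 ± 0.11 (log2, SE, adjusted p = 0.0045, edgeR), a 1.52-fold rise.

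Nusap1 (chr2:119618298-119650165), which binds and bundles microtubules near the chromosomes, was at 152, 138 and 139 CPM in the CK tumors, 155, 195 and 157 with PB-020, 152, 171 and 188 with anti-PD-1 and 199, 212 and 182 with both agents. Only 1 treated tumor, anti-PD-1 tumor 1, fell within the CK range. Nusap1 rose by 0.47 ± 0.10 (log2, SE, adjusted p = 0.0085, edgeR). Kif11, the kinesin Eg5 that pushes the spindle poles apart, rose by 0.40 ± 0.12 (adjusted p = 0.042) and was called in 12 of the 20 alternatives, the call being lost without CK tumor 2 or 3, anti-PD-1 tumor 2 or any combination tumor. Tpx2, the activator of Aurora A, and the microtubule-depolymerizing kinesin Kif2c had log2 changes of 0.28 and 0.22 (adjusted p = 0.055 and 0.16, edgeR).

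Among the 5 genes of the central spindle and cytokinesis, Kif4, a kinesin that compacts chromosomes and organizes the spindle midzone, rose by 0.47 ± 0.14 (log2, SE, adjusted p = 0.043, edgeR), from 64.9 ± 9.58 to 90.0 ± 5.01 CPM (SD, n = 3). Its call held in 11 of the 20 alternatives, and was lost without CK tumor 2 or 3, PB-020 tumor 1, anti-PD-1 tumor 1 or any combination tumor. Anln, the midzone kinesins Kif20a and Kif23 and the midzone bundler Prc1 had log2 changes of 0.17 to 0.20 and did not pass.

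Top2a and Mki67, the chromosome proteins and common markers of proliferation, differed in their calls. Top2a (chr11:98992947-99024199), which untangles DNA before the chromatids part, was at 880.5, 718 and 723 CPM in the CK tumors, 868, 1117 and 808 with PB-020, 1147, 1074 and 1265 with anti-PD-1 and 1293, 1207 and 1147 with both agents. The 6 tumors given anti-PD-1 spanned 1074 to 1293 CPM, above all CK tumors, and PB-020 tumor 2 at 1117 CPM was the only other tumor in that span. Its log2 change of 0.65 ± 0.12 was the largest of the 36 in this comparison (SE, adjusted p = 0.0048, edgeR), a 1.57-fold rise.

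Mki67 (chr7:135689784-135716450) read 895, 801 and 769 CPM in the CK tumors, 834, 1143 and 739 with PB-020, 979, 1056 and 1201 with anti-PD-1 and 1124, 991 and 1017 with both agents. All tumors given anti-PD-1 again lay above CK, and only anti-PD-1 tumor 3 stood above PB-020 tumor 2. The combination change of 0.35 ± 0.14 had an adjusted p of 0.096 (edgeR) and passed in 3 of the 20 alternatives, DESeq2 among them (0.047).

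**Figure D3:**
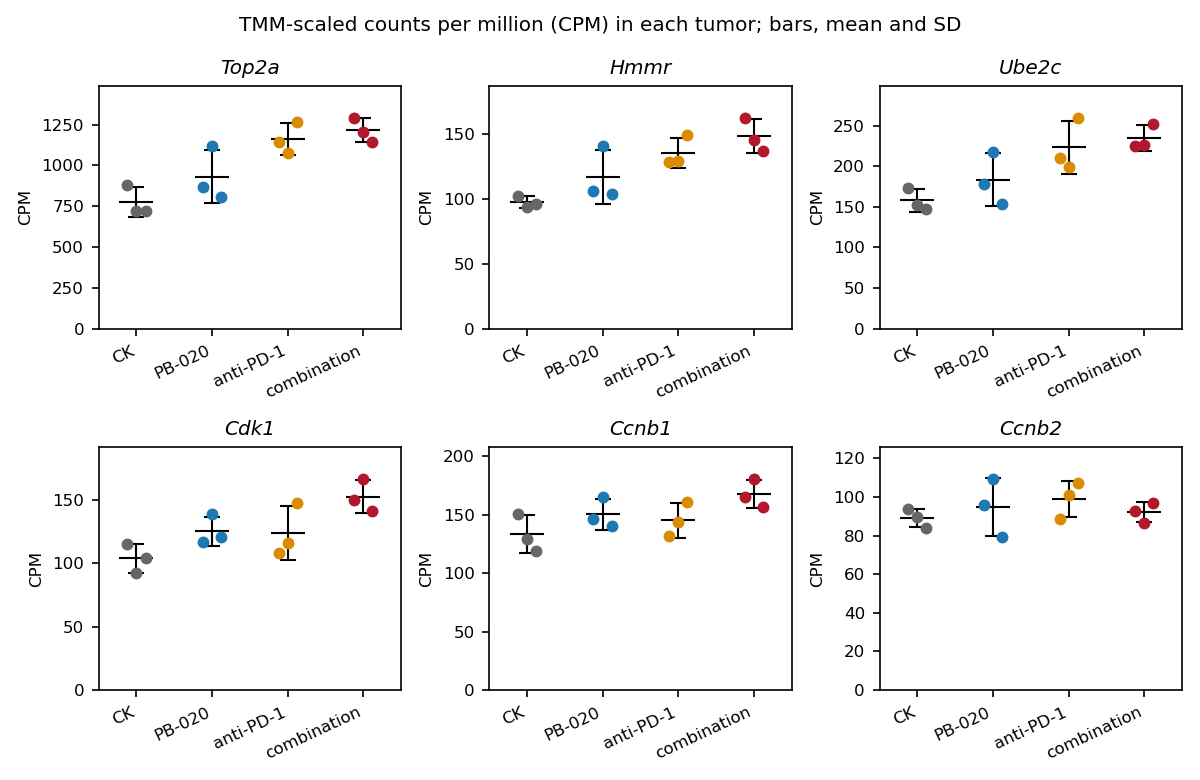
CPM (TMM-scaled, linear axes from 0) of Top2a, Hmmr, Ube2c, Cdk1, Ccnb1 and Ccnb2 in each of the 12 tumors, with points for tumors and bars for the mean and SD of 3 tumors per group. Top2a, Hmmr and Ube2c were higher in all tumors given anti-PD-1 than in all CK tumors, while the 4 groups overlapped for Ccnb2.

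Anti-PD-1 alone was set against CK to see the difference with the antibody by itself. It raised 7 of the 36 genes, Ccna2, Foxm1, Hmmr, Kif4, Pbk, Top2a and Ube2c, and lowered 0, where 4.18% of all genes rose and 4.08% fell. Top2a alone also passed a fold of 1.5 (7.18% of all genes). Both comparisons used the same CK tumors, so their results are not independent, and the 7 genes were also among the 15 raised by the combination. The fitted changes were above 0 in all 36 genes (50.1% of all genes) with a median of 0.25 on the log2 scale and a range of 0.01 to 0.59. Top2a had the largest change at 0.59 ± 0.12 (SE, adjusted p = 0.016, edgeR), then Kif4 at 0.54 ± 0.14 (adjusted p = 0.043), Ube2c at 0.50 ± 0.13 (adjusted p = 0.035) and Hmmr at 0.48 ± 0.11 (adjusted p = 0.022). Foxm1 stood at 231 ± 16.9 CPM (SD, n = 3), a rise of 0.34 (adjusted p = 0.019), and Ccna2 rose by 0.38 (adjusted p = 0.024). Cdk1 and Ccnb1, raised by the combination, had changes of 0.25 and 0.12 that did not pass (adjusted p = 0.20 and 0.45, edgeR).

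In 14 of the 36 genes every anti-PD-1 tumor exceeded every CK tumor in CPM (13.9% of all genes), and in TPM, which scales each library to the same total, 23 did (12.1%). The number of calls rested on single tumors and on the shared estimate of spread. It was 0 without CK tumor 2, 0 without anti-PD-1 tumor 3, 1 without CK tumor 3, 4 without combination tumor 1 or 2, 11 without PB-020 tumor 2, and 0 when the model held only the anti-PD-1 and CK tumors, whereas 35 or 36 fitted changes stayed above 0 under each left-out tumor. Without anti-PD-1 tumor 1, the tumor rich in muscle and T cell transcripts, 5 genes were called and the median change was 0.30. Over the 20 alternatives Top2a was called in 17, Ccna2, Foxm1 and Hmmr in 16 each, Ube2c in 11, Kif4 in 9 and Pbk in 6.

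PB-020 alone raised 0 and lowered 0 of the 36 genes, as it did of all 13563 (0.0% called; edgeR, with 4 of the 36 at an unadjusted p under 0.05, and 0 of the 36 by DESeq2). The 4 were Nusap1 (log2 change 0.24, unadjusted p = 0.030 from edgeR), Hmmr (0.26, 0.034), Cdk1 (0.27, 0.045) and Top2a (0.27, 0.047), and their adjusted p values were 0.87. Fitted changes were above 0 in 32 genes, against 48.7% of all genes, with a median of 0.14. In Cdk1, Nusap1 and Hmmr every PB-020 tumor exceeded every CK tumor in CPM, as in 7.78% of all genes, while in TPM 0 of the 36 did (3.03%). These counts depended on single tumors. Without PB-020 tumor 2 the changes were above 0 in 19 of the 36 genes with a median of 0.01, and without CK tumor 1, the highest of the CK tumors, they were above 0 in 35 with a median of 0.21. The 95% intervals of the 36 changes reached from -0.28 to 0.54, and changes within a gene's own interval were not excluded.

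**Figure D4:**
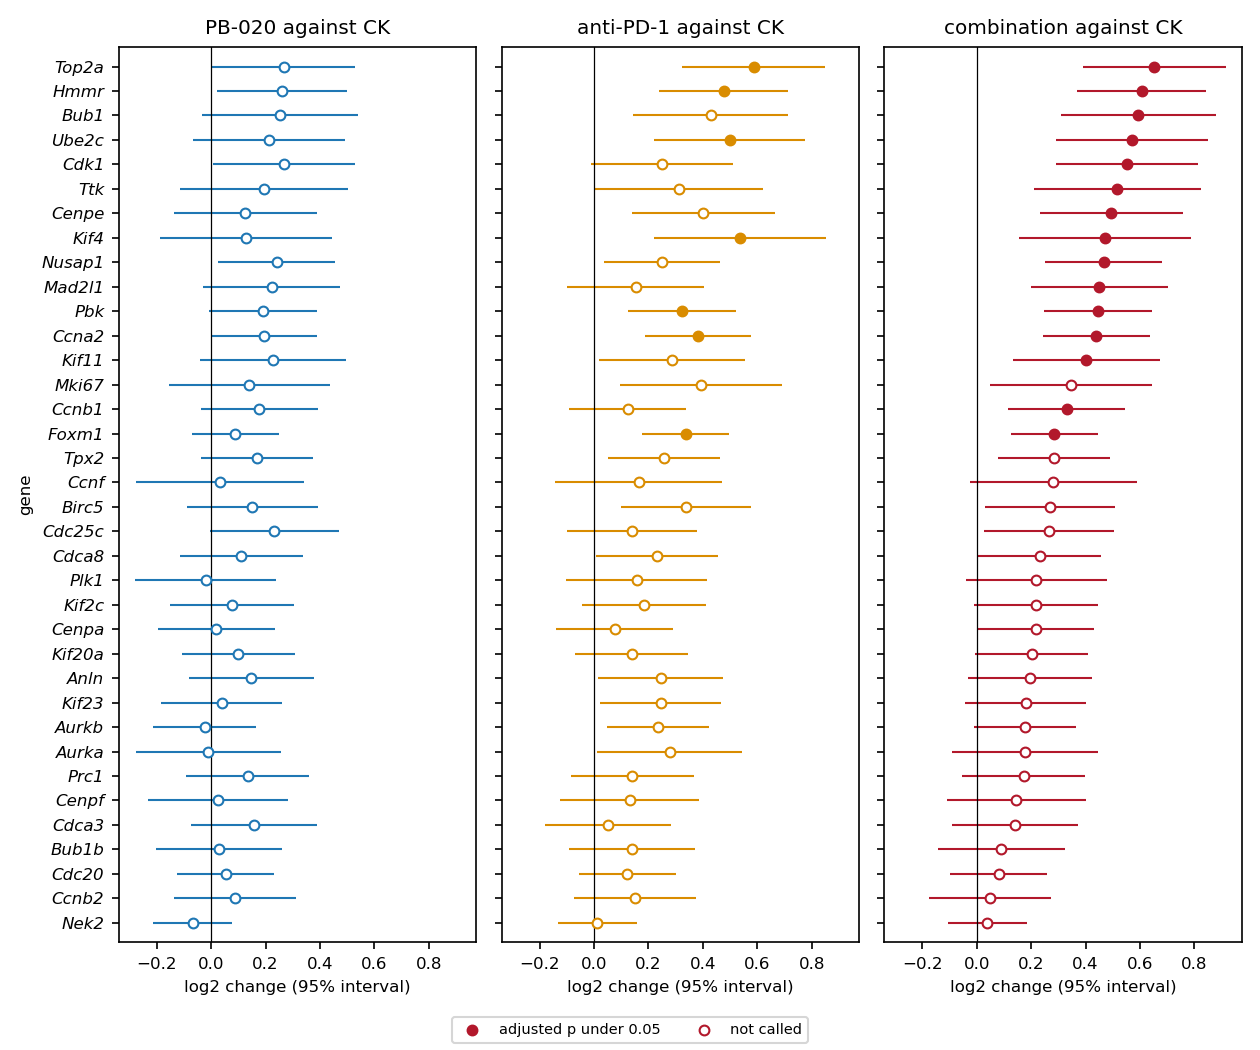
Log2 change of each of the 36 genes against CK (points) with 95% intervals (bars) for PB-020, for anti-PD-1 and for both agents, from edgeR's quasi-likelihood fit. Filled points mark genes with an adjusted p under 0.05. 0, 7 and 15 genes passed in the 3 panels, and every point lies right of 0 in the anti-PD-1 and combination panels.

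Whether the combination went beyond either agent was tested directly. Against anti-PD-1 alone, 0 of the 36 genes passed (0.0% of all genes called), with 3 at an unadjusted p under 0.05 by edgeR and 0 called by DESeq2. These were Mad2l1 (log2 difference 0.30, 95% interval 0.05 to 0.55, unadjusted p = 0.024, edgeR), Cdk1 (0.30, 0.04 to 0.56, 0.026) and Nusap1 (0.22, 0.00 to 0.43, 0.047). The median difference was 0.06, and 25 of the 36 were above 0 against 43.5% of all genes. In CPM, Mad2l1 was the 1 gene whose combination tumors (124, 146 and 127 CPM) all exceeded the anti-PD-1 tumors (94.1, 108 and 121 CPM), a pattern in 4.33% of all genes. In TPM it held for Mad2l1, Ccnb1 and Nusap1 (3.32% of all genes), and for Kif23 every combination tumor lay below every anti-PD-1 tumor (9.02%). Ccnb1 had a difference of 0.21 (-0.01 to 0.42). Top2a, Ube2c and Hmmr, which were among the genes most raised by anti-PD-1, had differences of 0.07, 0.07 and 0.13. Kif4, also among those genes, went the other way, with log2 changes against CK of 0.47 for the combination and 0.54 for anti-PD-1.

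Against PB-020 alone, 0 of the 36 genes passed, with 13 at an unadjusted p under 0.05 by edgeR and 3 called by DESeq2, while 1.25% of all genes rose and 2.11% fell. The differences were above 0 in 34 genes (49.8% of all genes) with a median of 0.19, and without PB-020 tumor 2 the combination raised 7 genes. Cdk1 had a log2 difference of 0.28 ± 0.12, Top2a 0.38 ± 0.12 and Ccna2 0.25 ± 0.09 (SE). In these 3, in Foxm1 and in Ube2c all combination tumors exceeded all PB-020 tumors in CPM, where 14.6% of all genes did so. In TPM this held for 2 of the 36, Cdk1 and Top2a (12.7% of all genes).

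Pooling the tumors by agent gave 6 against 6. The 6 tumors given anti-PD-1 differed from the 6 not given it in 15 genes, all raised, where 11.8% of all genes rose and 12.3% fell, and 0 of the 36 passed a fold of 1.5 with an unadjusted p under 0.05 (7.73% of all genes). The largest effects were those of Top2a (0.49 ± 0.09, log2, SE, adjusted p = 0.0023, edgeR), Kif4 (0.44), Ube2c (0.43) and Hmmr (0.41). Aurkb (0.22), Mki67 (0.30) and Birc5 (0.23) passed here but not in the combination against CK, with adjusted p values of 0.023, 0.040 and 0.050 (edgeR), and Ccnb1, Kif11 and Mad2l1 did not pass here. Without any 1 of CK tumor 2, PB-020 tumors 1 and 3 and anti-PD-1 tumor 3 the count was 9, and without PB-020 tumor 2 it was 23.

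The 6 tumors given PB-020 differed from the other 6 in 0 genes (0.0% of all genes), with 8 of the 36 at an unadjusted p under 0.05 by edgeR, a median effect of 0.08 and 30 effects above 0 (44.5% of all genes). The smallest p values belonged to Cdk1 (0.28 ± 0.08, unadjusted p = 0.0054, edgeR), Nusap1 (0.23, 0.0059) and Mad2l1 (0.26, 0.0076), with adjusted p values of 0.31 to 0.32. DESeq2 called 0 of the 36 there. The interaction, which is 0 where the changes of the single agents add up on the log2 scale, passed in 0 genes and had 0 at an unadjusted p under 0.05 by edgeR. Its estimates were above 0 in 8 of the 36, against 47.6% of all genes, with a median of -0.09, and the number above 0 moved between 4 and 25 as single tumors were left out.

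Tumors of 1 group differed from each other as a block. The mean over the 36 genes of log2 CPM minus the CK mean was 0.13, -0.06 and -0.08 in the CK tumors, 0.07, 0.34 and -0.04 with PB-020, 0.17, 0.21 and 0.38 with anti-PD-1 and 0.34, 0.30 and 0.30 with both agents. The combination tumors were alike, while PB-020 tumor 2 stood at the level of the combination and PB-020 tumors 1 and 3 among the CK tumors. PB-020 tumor 2 was the highest of the 12 tumors for 8 of the 36 genes and anti-PD-1 tumor 3 for 10, and PB-020 tumor 3, CK tumor 2 and CK tumor 3 were the lowest for 13, 12 and 10. Summed over the 36 genes the level was 3603 ± 224 TPM in the CK tumors, 3801 ± 605 with PB-020, 4406 ± 224 with anti-PD-1 and 4349 ± 209.8 with both agents (SD, n = 3). On the TPM scale the median gene of the combination group stood 0.08 below CK on the log2 scale (0.15 below in combination tumor 2), so that 34 of the 36 genes were above the CK mean and 36 were above the median gene.

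Summed T cell markers were above the CK range in all 6 tumors given anti-PD-1, and also in PB-020 tumor 3, at 99.8 TPM. Anti-PD-1 tumor 1, with 247 TPM of T cell markers, had the lowest mean log2 CPM of the 36 genes in its group, although by their summed TPM it stood second, at 4417 against 4177 and 4624. PB-020 tumor 2, high in the 36 genes, had 88.3 TPM, within the CK range. Cytotoxic lymphocyte markers were 41.8 to 83.5 TPM in CK and 111 to 155 in the combination group, and erythroid markers 1218 to 2760 and 224 to 305. The part of these cell types in the levels of the 36 genes was not tested.

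**Figure D5:**
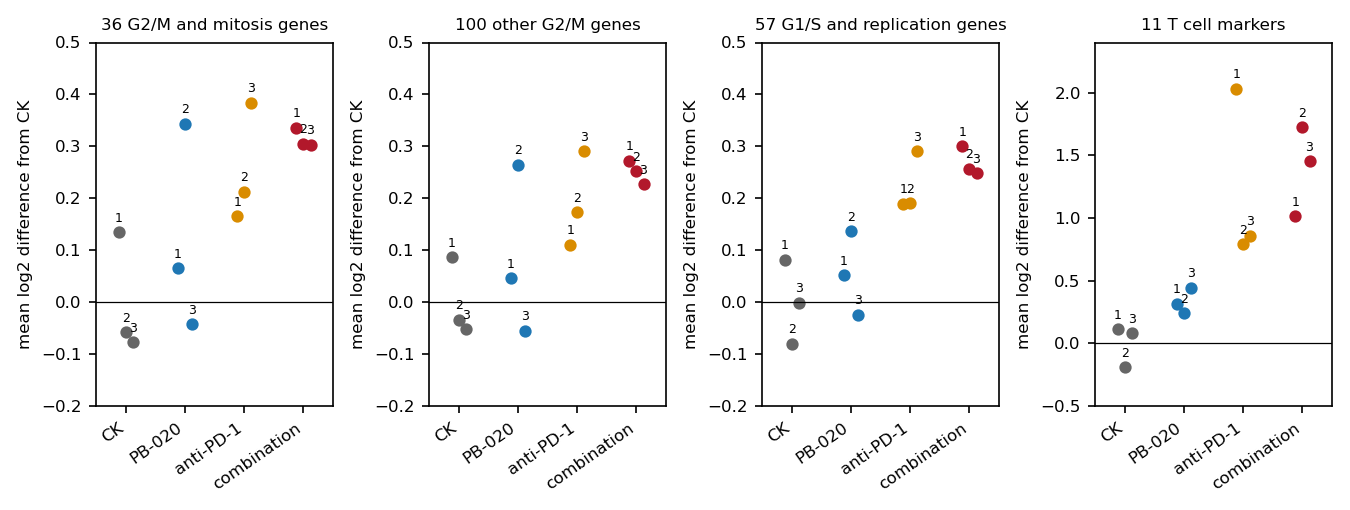
Values in each of the 12 tumors (points, by group) for the 36 G2/M and mitosis genes, other G2/M genes, G1/S and replication genes, and T cell markers, each as the mean over the list of log2 CPM minus the CK mean. The 3 combination tumors lie at 0.34, 0.30 and 0.30 for the 36 genes, PB-020 tumor 2 lies with them at 0.34, and the T cell markers reach 2.03 in anti-PD-1 tumor 1.

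Other genes of the same phase were taken as a separate list of 101 symbols, of which 100 were tested. With the combination 33 of them rose (8.35% of all genes) and 0 fell (9.6%). Fitted changes were above 0 in 93 (49.6% of all genes), with a median of 0.23. The smallest p values were those of the centromere proteins Cenpi (log2 change 0.84) and Cenpk (0.77) and of Cep55 (0.59), which acts in the last step of cytokinesis. With anti-PD-1 alone 10 rose (4.18% of all genes) and 0 fell (4.08%). PB-020 alone raised 0, and against anti-PD-1 the combination had 0, but 0.0% of all genes were called in either comparison. Of 57 genes of the preceding phases, G1/S and DNA replication, 23 rose with the combination and 12 with anti-PD-1. Those shares over all genes were 8.35% and 4.18%. In either comparison 0 of the 57 fell, and the median combination change was 0.21. Cyclin E2 (Ccne2, 0.85), geminin (Gmnn, 0.64), which blocks re-replication, and the polymerase alpha subunit Pola1 (0.98) had the smallest p values of that list in the combination group.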

How the data were processed

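RNA of 12 MC38 tumors was sequenced by the authors as pairs of 150 bases, aligned with Bowtie2 at default settings and quantified with RSEM. Reads that fit several genes are split by RSEM, which leaves genes with close copies less certain. The submitters' processing notes name HISAT and Bowtie2 and the build GRCm38.p6, the methods name mm10 or hg19, and tool versions and annotation are not given in the sources used here. The deposited expected counts are the authors' estimates without normalization, and 91.0% of them are whole. FPKM values deposited beside them correct for gene length and library total, and the deposited TPM values, by the authors, share 1 total per library. The authors' group averages were not used.

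Expected counts were rounded, reduced by filterByExpr to genes with enough counts (edgeR 4.0.16 in R 4.3.3, minimum count 10), scaled by TMM and fitted with a robust quasi-likelihood model of 4 group means over all 12 libraries. Tests were two-sided, with p values adjusted by Benjamini-Hochberg over 13563 genes and called at 0.05. Alternatives were DESeq2 1.42.0, limma 3.58.1 on log2(FPKM + 1) and log2(FPKM + 0.1), no filter, a strict filter, library size alone, only the groups compared, the replicate block, the study's thresholds (fold over 1.5, unadjusted p under 0.05) and each library left out. The study's thresholds were applied to the edgeR values, whereas the study itself used Student's t test. The code was tested on simulated data.

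Full statistics are given for the 10 genes with the smallest and the 3 with the largest p in the combination against CK, the highest and lowest by TPM, and Cdk1, Ccnb1, Mki67 and Top2a; other genes named with values were added for the account of their role. The members, lists and rule were chosen with earlier results of these data known. Replicates were separate tumors by their labels; p values cover the spread between these tumors. Depth was 16545394 to 17217035 counts, and counting error was not set against that spread gene by gene. Promoter windows came from RefSeq (GRCm38.p6).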

Additional observations from a re-analysis of the deposited data

How the results depend on the processing

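Of 36 G2/M and mitosis genes, 7 were called for anti-PD-1 against CK. The number was 1 at the study's thresholds (fold over 1.5, unadjusted p under 0.05), applied here to edgeR's fit. It was 11 with DESeq2, 0 with only the groups compared and 4 with the replicate block, and ran from 0 to 11 as 1 tumor was left out. For the combination against CK (15 called) it was 3 at the study's thresholds and 5 to 18 with 1 tumor left out, and 12 with the replicate block. For anti-PD-1 as a main effect (15 called) it was 0 at the study's thresholds, 9 to 23 with 1 tumor left out and 11 with the block. For the combination against PB-020 (0 called) it was 3 with DESeq2, 2 with only the groups compared and 0 to 7 with 1 tumor left out. PB-020 against CK, the combination against anti-PD-1, the PB-020 main effect and the interaction gave 0 calls under every alternative, left-out tumors included. In the combination against CK, the log2 change of Nek2 ran from -0.014 (without CK tumor 3) to 0.081 over the left-out tumors. Signs moved more elsewhere, with 19 to 35 of the 36 changes above 0 for PB-020 against CK and 4 to 25 for the interaction. The causes of these moves were not tested, and leaving a tumor out also made the number of tumors smaller.

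Same-numbered tumors of different groups did not deviate together. Over 18 such pairs the correlation of deviations from the group means was -0.21 to 0.29 and above 0.1 in 2 pairs. Over the 36 pairs of unlike numbers it was -0.22 to 0.36 and above 0.1 in 9. These values gave no sign of a pairing by number, but they cannot exclude one, and the labels do not say. The depth of each library allowed all 36 genes to be measured, and 3 tumors a group limited the size of change that could pass.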

Other observations

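Ratios of 2 of the 36 genes within a tumor do not depend on the scaling of its library. Those given here were chosen after their values were seen and carry no test. Top2a stood at 2.58, 2.20 and 2.36 times the TPM of Ccnb2 in the CK tumors, 2.48, 2.81 and 2.80 in PB-020, 3.57, 2.93 and 3.24 in anti-PD-1 and 3.81, 3.84 and 3.25 in the combination tumors. All 6 tumors given anti-PD-1 lay above the other 6. The next ratios are ranges in the CK, PB-020, anti-PD-1 and combination tumors, in that order. Ccna2 against Ccnb2 ran 1.74 to 1.94, 1.90 to 2.18, 2.10 to 2.35 and 2.35 to 2.55. Hmmr against Nek2 ran 1.16 to 1.35, 1.42 to 1.85, 1.63 to 1.93 and 1.66 to 2.0. Ccnb1 against Ccnb2 ran 0.91 to 1.03, 0.97 to 1.13, 0.91 to 0.96 and 1.04 to 1.34, so anti-PD-1 alone did not exceed CK there.

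Of 16 regulators of G2/M transcription, 3 rose with the combination, 0 fell and 5 had fitted changes below 0, where 8.35% of all genes rose and 9.6% fell. These were Mybl2, which encodes B-Myb (log2 change 0.47), the MuvB subunit Lin9 (0.28) and the pocket protein Rbl1 (0.33). Of 13 cell-cycle brakes tested, Ccng1, a p53 target, rose by 0.25, and Cdkn2c, which encodes the Cdk4 and Cdk6 inhibitor p18, fell by 0.69, shares near those of all genes. The other 11 did not pass, among them Cdkn1c with 1.92 (adjusted p = 0.059, edgeR).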
